A study of Mus musculus with 6 samples.

Results

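Cells build purine and pyrimidine nucleotides from small precursors along 2 enzyme pathways, and 10 genes of these pathways were followed in the pancreas of Ela1-Myc and wild-type (WT) mice. The 10 genes were taken by symbol: Ppat, Gart, Paics, Pfas, Adsl, Atic, Impdh2 and Gmps for purines, and Cad and Umps for pyrimidines. All 10 were found, each as a single row, among the 23099 gene symbols of the deposited tables. The tables hold polyadenylated RNA of whole pancreas from 8-week-old mice, sequenced in 3 Ela1-Myc libraries and 3 WT libraries. Ela1-Myc mice are known as a line in which the promoter of elastase 1, an enzyme of the acinar cells that secrete digestive enzymes, drives Myc. Both groups share tissue and age, and the labels used here state no strain, sex or founder line. The comparison asks how the adult pancreas differs when Myc is kept on in acinar cells. The labels do not tie the libraries to animals, and p-values here reflect only how much these samples vary.

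Purine synthesis starts from phosphoribosyl pyrophosphate (PRPP), an activated ribose, and assembles the ring on it step by step until inosine monophosphate (IMP) is made. IMP is then turned into AMP or into GMP. Pyrimidine synthesis makes the ring first, as orotate, and joins it to PRPP afterwards to give UMP. MYC is a transcription factor known to raise many genes of growth and biosynthesis, and genes for nucleotide synthesis are among its established targets in other cells. Acinar cells of the adult pancreas divide little and spend much of their RNA on digestive enzymes.

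Levels are the authors' adjusted FPKM, a value per transcript length, divided by 100000; sequencing depth is unknown. Myc itself stood at 52.0, 34.4 and 34.2 in Ela1-Myc replicates 1 to 3, against 4.10 in WT replicate 2, and was listed at 0 in WT replicates 1 and 3. A listed 0 need not be a measured absence, since genes that every cell uses are also listed at 0 in WT. Among 8802 tested genes, those at 0 numbered 0, 29 and 13 in the Ela1-Myc libraries and 1061, 592 and 1426 in the WT libraries. The acinar markers Cpa1, Cela1, Ctrb1, Pnlip, Rbpjl, Bhlha15 and Ptf1a were above 0 in all 6 libraries; 3 of the 7 fell in Ela1-Myc on the deposited scale (median -0.68 log2 units), and after scaling 6 fell and all 7 had Ela1-Myc below WT (median -2.20). RNA integrity numbers were 8.8, 7.2 and 8.3 in the Ela1-Myc libraries and 7.3, 7.3 and 7.1 in the WT libraries, although the protocol text gives a minimum of 8.5, and their part in the results was not tested. The median tested gene lay 1.22 log2 units higher in Ela1-Myc with the values as deposited. Each change is therefore also given after median-of-ratios scaling, which sets the libraries to a common level over tested genes above 0 in all 6 of them and left the median gene at 0.24.

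All 10 genes were higher in every Ela1-Myc library than in every WT library on the deposited scale. Together they summed to 147.1, 138.8 and 133.8 in Ela1-Myc replicates 1 to 3, against 4.61, 32.5 and 6.94 in WT replicates 1 to 3. Of the 9 that entered the test, 9 rose (limma, Benjamini-Hochberg adjusted p under 0.05 over all tested genes). That count says little alone, because 70.2% of all tested genes were called higher and 75.3% had all Ela1-Myc values above all WT values. After scaling, 6 of the 9 rose, none fell and 3 were not called, where 18.1% of all tested genes were called higher and 7.95% lower (0.239% lower before scaling). The median log2 change of the 9 was 2.32, beside 1.22 for all tested genes, and 1.34 after scaling, beside 0.24. After scaling 9 of the 10 genes still had separate groups, where 30.4% of all tested genes had all Ela1-Myc values above all WT values, and Cad overlapped. The scaled count moved with single libraries. Without Ela1-Myc replicate 1, 2 or 3 it was 3, 1 and 1 of 9, where 14.4%, 6.26% and 5.6% of all tested genes were called higher. Without WT replicate 1, 2 or 3 it was 7, 8 and 3 of 10, where 18.5%, 20.7% and 11% were. The median member change in these 6 fits stayed between 1.12 and 1.43. In whole tissue, more cells of a type and more RNA per cell cannot be told apart.

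**Figure D1:**
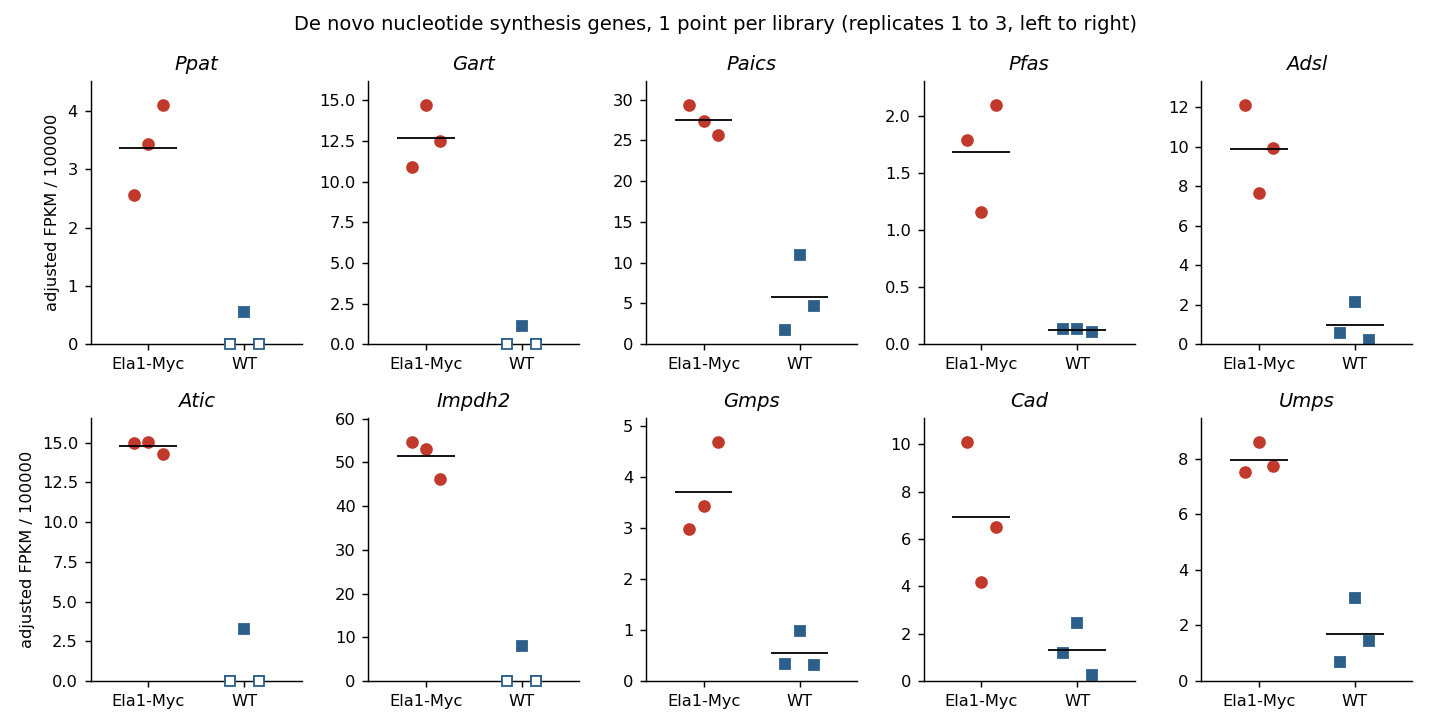
Level (adjusted FPKM divided by 100000, linear axis from 0) of each of the 10 genes, 1 point per library, with Ela1-Myc left of WT. Black lines are group means, drawn only where no library is at 0, and open squares are WT libraries listed at 0. The Ela1-Myc points lie above the WT points in every panel, and Impdh2 reaches 54.8 in Ela1-Myc replicate 1 against 7.97 in WT replicate 2.

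Impdh2 had the highest level of the 10 in Ela1-Myc. It encodes IMP dehydrogenase 2, which turns IMP towards GMP and is the rate-limiting enzyme of guanine nucleotide synthesis. Impdh2 (chromosome 9, 108560501 to 108565566, GRCm38) stood at 54.8, 53.1 and 46.2 in Ela1-Myc replicates 1 to 3. In WT it stood at 7.97 in replicate 2 and was listed at 0 in replicates 1 and 3. The 3 Ela1-Myc values were 6.87, 6.66 and 5.80 times that of WT replicate 2, and 3.84, 4.12 and 2.83 times after scaling. Its limma adjusted p was 0.000149 on the deposited scale and 0.0209 after scaling, and both values take the listed zeros as measured. Its isozyme Impdh1 catalyses the same step. Impdh1 stood at 28.4, 12.4 and 14.9 in Ela1-Myc, against 4.45, 19.3 and 1.83 in WT, so the groups overlapped. The Impdh1 change of 1.44 ± 0.676 log2 units (SE) was not called (limma adjusted p = 0.0686), nor was 0.12 ± 0.614 after scaling (limma adjusted p = 0.897). It was called among genes above 0 in all 6 libraries (limma adjusted p = 0.00954), with array weights (2.52, limma adjusted p = 4.74e-05) and without WT replicate 2 (2.23, limma adjusted p = 0.00267), so an uncalled Impdh1 does not show a lack of change. Whether Impdh2 and Impdh1 changed by different amounts was not tested, because Impdh2 is at 0 in 2 WT libraries. The 2 genes encode isozymes, and any reads that fit both may have been split between them, which was not tested. Impdh2 exceeded Impdh1 in all 3 Ela1-Myc libraries, whereas Impdh1 exceeded Impdh2 in WT replicate 2, the WT library with values above 0 for both.

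Gmps, which completes GMP after IMP dehydrogenase, had low levels in both groups. Gmps (chromosome 3, 63976143 to 64019078) stood at 2.99, 3.43 and 4.70 in Ela1-Myc, against 0.332, 0.981 and 0.316 in WT. No value overlapped, and the means were 3.71 ± 0.885 in Ela1-Myc and 0.543 ± 0.379 in WT (SD, n = 3 each), a ratio of 6.83. Gmps rose by 1.62 ± 0.290 log2 units (SE; limma adjusted p = 0.000376) and by 0.81 ± 0.182 after scaling (limma adjusted p = 0.0219).

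The first enzyme of purine synthesis, the amidotransferase Ppat, which commits PRPP to the pathway, was the lowest of the tested genes in Ela1-Myc. Ppat (chromosome 5, 76913249 to 76951578) stood at 2.56, 3.43 and 4.11 in Ela1-Myc, at 0.552 in WT replicate 2, and was listed at 0 in WT replicates 1 and 3. It was called on both scales (limma adjusted p = 9.86e-05 and 0.0108 after scaling). Gart, a single protein with 3 activities in the early and middle steps, had the same pattern of zeros. Gart (chromosome 16, 91621397 to 91646972) stood at 10.9, 14.7 and 12.5 in Ela1-Myc, against 1.15 in WT replicate 2, and was listed at 0 in WT replicates 1 and 3. Against WT replicate 2 the Gart values in Ela1-Myc were 9.47, 12.8 and 10.9 times as high, and 5.29, 7.91 and 5.30 times after scaling. Gart had the smallest adjusted p of the 10 on both scales (limma adjusted p = 1.44e-05, and 0.00407 after scaling). It was also the 1 gene called in each of the 23 settings in which it could be tested. Those settings reuse the same 6 libraries, and the settings limited to genes above 0 in all 6 left Gart out. With a WT mean under 1, Gart entered the main test only through its Ela1-Myc values.

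Paics, which fuses 2 later steps of ring building in 1 protein, was the second most abundant. Paics (chromosome 5, 76951411 to 76967505) stood at 29.3, 27.4 and 25.7 in Ela1-Myc, against 1.73, 10.9 and 4.64 in WT. The Ela1-Myc libraries lay close together, while WT replicate 2 exceeded WT replicate 1 by 6.29 times. The means were 27.5 ± 1.83 in Ela1-Myc and 5.76 ± 4.68 in WT (SD, n = 3 each), a ratio of 4.77. Paics rose by 2.32 ± 0.595 log2 units (SE; limma adjusted p = 0.00387), and after scaling the change of 1.00 ± 0.370 was not called (limma adjusted p = 0.0876).

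Pfas, which acts between the activities of Gart, was too low to be tested. Pfas (chromosome 11, 68985701 to 69008460) stood at 1.79, 1.15 and 2.09 in Ela1-Myc, against 0.131, 0.129 and 0.103 in WT. Its mean over all 6 libraries, 0.90, missed the minimum of 1, although the groups did not overlap on either scale. With no filter it was called higher (1.24 log2 units, limma adjusted p = 0.0109), where 36.7% of all genes were called higher.

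Adsl acts 2 times in purine synthesis, once before IMP and once on the branch to AMP. Adsl (chromosome 15, 80948519 to 80969373) stood at 12.1, 7.66 and 9.93 in Ela1-Myc, against 0.563, 2.12 and 0.195 in WT. Its means of 9.90 ± 2.22 in Ela1-Myc and 0.959 ± 1.02 in WT (SD, n = 3 each) gave the largest ratio among the tested genes above 0 in all libraries, 10.3. Adsl rose by 2.58 ± 0.403 log2 units (SE; limma adjusted p = 0.000149), and by 1.62 ± 0.345 after scaling (limma adjusted p = 0.0183). Atic closes the ring and releases IMP. Atic (chromosome 1, 71557156 to 71579403) stood at 14.96, 15.1 and 14.3 in Ela1-Myc, against 3.28 in WT replicate 2, and was listed at 0 in WT replicates 1 and 3. Its 3 Ela1-Myc values differed least of the 10 genes, with a coefficient of variation of 2.95% (14.5% after scaling), and were 4.56, 4.59 and 4.35 times that of WT replicate 2. Atic was called on both scales (limma adjusted p = 0.000139, and 0.0227 after scaling).

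The pyrimidine genes rose on the deposited scale and were not called after scaling. Cad encodes the protein that carries the first 3 activities of the pathway and sets its rate. Cad (chromosome 5, 31054811 to 31078479) stood at 10.1, 4.18 and 6.51 in Ela1-Myc, against 1.17, 2.46 and 0.246 in WT. Among the 10 genes Cad varied most between Ela1-Myc libraries, with a coefficient of variation of 43.1%. Cad rose by 1.84 ± 0.420 log2 units (SE; limma adjusted p = 0.00186). After scaling, the Cad level of 2.76 in Ela1-Myc replicate 2 lay below the 2.88 of WT replicate 1, and the change of 0.84 ± 0.438 was not called (limma adjusted p = 0.192). Umps joins orotate to PRPP and yields UMP. Umps (chromosome 16, 33955012 to 33967003) stood at 7.54, 8.63 and 7.76 in Ela1-Myc, against 0.677, 2.996 and 1.44 in WT. Its means were 7.97 ± 0.574 in Ela1-Myc and 1.70 ± 1.18 in WT (SD, n = 3 each), a ratio of 4.68. Umps rose by 1.82 ± 0.391 log2 units (SE; limma adjusted p = 0.00129), and 0.73 ± 0.243 after scaling was not called (limma adjusted p = 0.0665).

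**Figure D2:**
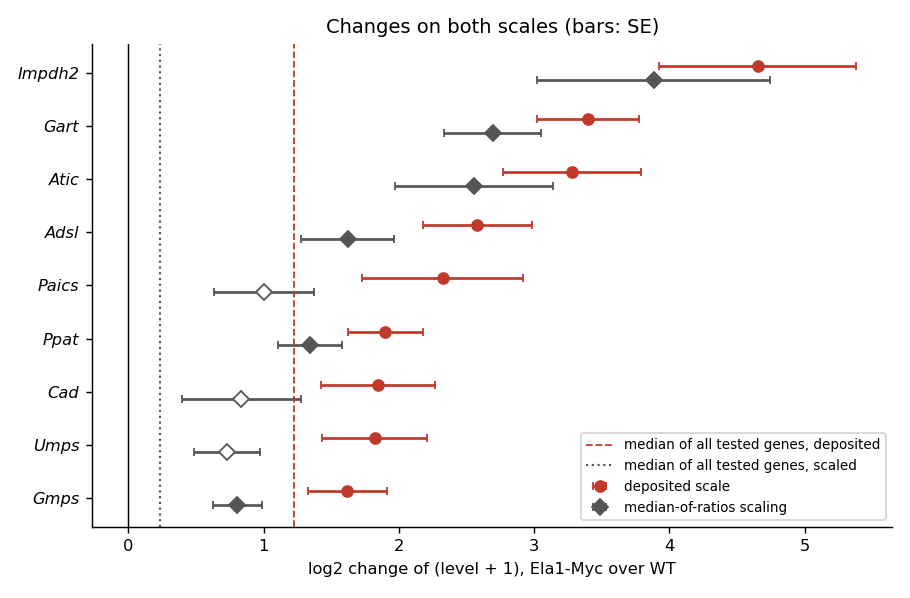
Log2 change of level + 1, Ela1-Myc over WT, for the 9 tested genes on the deposited scale (red circles) and after median-of-ratios scaling (grey diamonds, open where not called), with SE bars. The lines mark no change and the median of all tested genes on each scale (1.22 and 0.24). Impdh2, Gart and Atic lie farthest to the right, but each is listed at 0 in 2 WT libraries, and Paics, Cad and Umps are open after scaling.

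The test could not treat all 9 genes alike. A set of 5, namely Paics, Atic, Impdh2, Cad and Umps, had a WT mean of at least 1 and entered the test through either group. The other 4 tested genes, Ppat, Gart, Adsl and Gmps, had a WT mean under 1 and entered only through their Ela1-Myc values, so a higher level was a condition of their being tested. After scaling all 4 of these rose, and 2 of the 5 others, Atic and Impdh2, did, where 18.1% of all tested genes were called higher. Atic and Impdh2 reached a WT mean of 1 through WT replicate 2 alone, being listed at 0 in WT replicates 1 and 3. Paics, Cad and Umps, above 0 in every WT library, were not called after scaling. In all, 4 of the 10 genes had a value above 0 in WT replicate 2 and 0 in the other WT libraries, a pattern held by 4.76% of all tested genes. Under quantile normalization 5 of the 9 rose, where 11.3% of tested genes were called higher, and with digestive enzymes left out and library totals made equal 8 rose, where 21.5% were. Among the tested genes above 0 in all 6 libraries, which included Paics, Adsl, Gmps, Cad and Umps, 10.5% of genes rose after scaling. In that fit 2 of the 5, Adsl and Gmps, rose. With only WT replicate 2 kept in WT, 8 of 10 rose on the deposited scale, where 31.0% of genes were called higher. After scaling in the same setting only Gart was called (limma adjusted p = 0.0169), where 11.3% of genes were called higher; the lone WT library was then assumed to vary like the Ela1-Myc group.

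The order of the levels is not touched by a scale factor. In Ela1-Myc, Impdh2 made up 36.7% ± 1.92 (SD, n = 3) of the summed level of the 10 genes, Paics 19.6% ± 0.387, Atic 10.6% ± 0.352 and Gart 9.11% ± 1.61, and only the shares of Atic and Gart overlapped among these 4. Next came Adsl with 7.06% ± 1.39, Umps with 5.71% ± 0.55 and Cad with 4.92% ± 1.94, and these 3 neighbours did not differ beyond their spread. Gmps with 2.67% ± 0.758, Ppat with 2.43% ± 0.667 and Pfas with 1.2% ± 0.367 were the lowest, and the shares of Gmps and Ppat overlapped. In WT replicate 2, the WT library with none of the 10 at 0, Paics came first with 33.5%, before Impdh2 with 24.5% and Atic with 10.1%. Gart there held 3.53% of the sum. The shares of WT replicates 1 and 3 are those of 6 genes only, and Paics made up 37.6% and 66.8% of them.

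**Figure D3:**
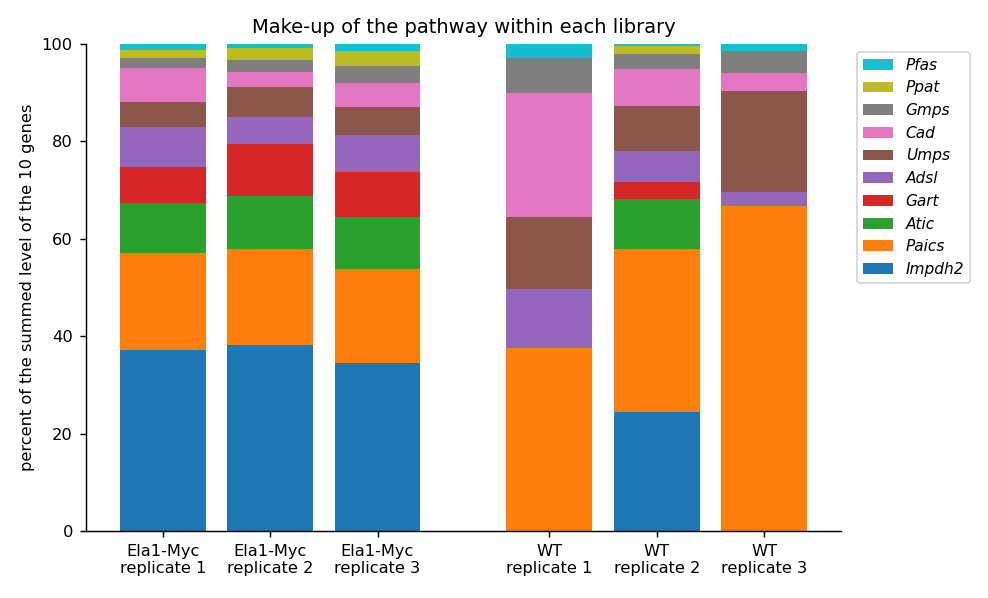
Share of each gene in the summed level of the 10 genes (percent, bars stacked to 100) in each library, with Ela1-Myc replicates 1 to 3 left of WT replicates 1 to 3. The 3 Ela1-Myc bars are alike, with Impdh2 at 37.2%, 38.3% and 34.6%. WT replicates 1 and 3 lack 4 genes that are listed at 0.

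The rank of a gene within its library is likewise free of any scale. Among tested genes, Paics lay at the 89.2, 89.2 and 88.0 percentile in Ela1-Myc replicates 1 to 3, against the 69.1, 84.8 and 85.6 percentile in WT replicates 1 to 3. Adsl lay at 77.0, 65.9 and 70.3 in Ela1-Myc, against 37.7, 51.6 and 20.3 in WT, and Gmps at 34.8, 39.1 and 42.6 in Ela1-Myc, against 25.5, 30.8 and 23.6 in WT. The ranks of Paics, Adsl, Gmps and Umps did not overlap between groups, and those of Cad did. How many of all tested genes have ranks that stay apart was not computed, so this says little alone. Adsl and Gmps had a WT mean under 1 and are among the ranked genes only through their Ela1-Myc values. The Cad percentiles were 72.8, 46.3 and 56.4 in Ela1-Myc and 58.8, 55.2 and 21.6 in WT. Impdh2 lay at 93.6, 93.8 and 93.0 in Ela1-Myc, against 80.2 in WT replicate 2.

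Ratios of 2 genes within a library, taken after 1 was added to both levels, gave no difference past the threshold. The added 1 weighs most where levels are low, as in WT. Of 8 ratios, 3 were left out because a gene was at 0 in 2 libraries, and the smallest exact two-sided permutation p that 3 against 3 libraries can give is 0.1. The ratio of Gmps to Adsl averaged -1.21 ± 0.441 in Ela1-Myc and -0.25 ± 0.398 in WT on the log2 scale (SD, n = 3 each; exact p = 0.1, adjusted over 5 ratios 0.25). With the added 1 its groups did not overlap. Nor did those of the ratio of the CTP synthases Ctps to Ctps2, which averaged 1.44 ± 0.113 in Ela1-Myc and 0.22 ± 0.708 in WT (exact permutation p = 0.1, adjusted 0.25). Without the added 1 both ratios overlapped between groups. The plain ratio of Gmps to Adsl was lower in WT replicate 2 than in Ela1-Myc replicate 3. That of Ctps to Ctps2 was higher in WT replicate 1 than in every Ela1-Myc library. The ratio of Cad to Umps averaged -0.24 ± 0.638 in Ela1-Myc and -0.27 ± 0.673 in WT (exact permutation p = 0.9, adjusted 0.9). With the added 1, the ratios Prps1 to Prps2 and Umps to Uck2 overlapped (exact permutation p = 0.2 for each, adjusted 0.25). The plain ratio of Umps to Uck2 was higher in every Ela1-Myc library than in every WT library, and plain ratios were not tested.

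Promoter windows are shown for the genes that hold an E-box, CACGTG, the hexamer to which MYC and its partner MAX are known to bind. RefSeq windows of 300 bases (GRCm38.p6), 250 before to 50 after the gene start, were found for 9 of the 10 genes. The E-box reads the same on both strands and occurred in 3 of the 9 windows, those of Impdh2, Atic and Paics, against 7.15% of 32851 windows of all genes and 10.4% of 8108 windows of tested genes. It begins 110 bases before the start of Impdh2 (chr9:108560186-108560485, plus strand), 7 before that of Atic (chr1:71556906-71557205, plus strand) and 203 before that of Paics (chr5:76951052-76951351, plus strand). Each sequence runs 5′ to 3′ and the capitals mark the E-box.
Impdh2: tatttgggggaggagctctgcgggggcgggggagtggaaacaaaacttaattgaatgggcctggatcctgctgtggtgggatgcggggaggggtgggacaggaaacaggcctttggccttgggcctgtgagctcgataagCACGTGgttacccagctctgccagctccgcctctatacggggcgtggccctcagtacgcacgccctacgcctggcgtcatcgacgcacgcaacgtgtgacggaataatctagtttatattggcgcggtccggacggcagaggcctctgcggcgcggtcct
Atic: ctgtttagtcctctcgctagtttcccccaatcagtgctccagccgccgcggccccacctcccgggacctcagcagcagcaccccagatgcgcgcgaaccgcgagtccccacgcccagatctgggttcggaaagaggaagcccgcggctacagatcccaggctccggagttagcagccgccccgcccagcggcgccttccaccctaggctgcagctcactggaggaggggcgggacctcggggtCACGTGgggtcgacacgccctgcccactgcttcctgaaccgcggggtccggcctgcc
Paics: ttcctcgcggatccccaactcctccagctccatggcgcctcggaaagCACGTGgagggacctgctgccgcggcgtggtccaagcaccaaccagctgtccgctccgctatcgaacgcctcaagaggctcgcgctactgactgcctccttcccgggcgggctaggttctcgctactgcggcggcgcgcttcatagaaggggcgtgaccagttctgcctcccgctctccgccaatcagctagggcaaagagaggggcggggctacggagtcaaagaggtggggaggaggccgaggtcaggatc
The related hexamer CACGCG, searched on both strands, occurred in none of the 9 windows, in 9.27% of all windows and in 17.0% of windows of tested genes. Such a match is a description of letters in a window and not a binding site, and a window without one says nothing of the factor. Impdh2 and Atic had 0 listed in 2 WT libraries, and Paics was not called after scaling, so the 3 genes with an E-box did not share 1 pattern of values. Ppat and Paics lie head to head on chromosome 5, and their deposited intervals overlap by 168 bases (76951411 to 76951578). The library kit keeps strand, but no source used here says whether the counting used it, so reads in that overlap are uncertain for both genes.

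The counts for the other lists of nucleotide genes are to be read against all tested genes, of which 70.2% were called higher on the deposited scale and 18.1% after scaling. The shares of the 8 lists ranged from 57.1% to 100% and, after scaling, from 14.3% to 66.7%. For the remaining steps of de novo synthesis, of 10 genes 8 were tested; 6 rose and 2 were not called on the deposited scale, and after scaling 3 rose, 1 fell and 4 were not called. PRPP synthetase 1, Prps1, stood at 8.69, 10.4 and 10.3 in Ela1-Myc, against 1.04, 5.02 and 0.515 in WT (2.02 log2 units, limma adjusted p = 0.00242; 0.94 after scaling, limma adjusted p = 0.141). Prps2, its isoform, stood at 3.30, 3.40 and 5.21 in Ela1-Myc, against 0.739, 2.08 and 1.42 in WT (1.06 log2 units, limma adjusted p = 0.0111; 0.04 after scaling, limma adjusted p = 0.883). The PRPP synthetase-associated gene Prpsap1 was the 1 gene that fell after scaling (by 1.15 log2 units, limma adjusted p = 0.0388); it was chosen for naming after its values were seen. Adss, which opens the AMP branch, stood at 5.70, 7.81 and 8.87 in Ela1-Myc, against 0.485, 2.58 and 0.803 in WT, and rose on both scales (limma adjusted p = 0.000719 and 0.0394 after scaling). Of the genes tested here and in the lists that follow, 23 had a WT mean under 1 and entered the test only through their Ela1-Myc values. Dhodh, Ctps, Rrm1, Rrm2, Tyms and Tk1 were among them, and the calls of all 23 carry that condition.

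On the pyrimidine side, Dhodh makes orotate in mitochondria, between the steps of Cad and Umps. Dhodh stood at 2.35, 1.83 and 2.89 in Ela1-Myc, against 0.475, 0.851 and 0.804 in WT (0.97 log2 units, limma adjusted p = 0.00546; 0.12 after scaling, limma adjusted p = 0.606). Ctps, which turns UTP into CTP, stood at 4.89, 6.63 and 6.64 in Ela1-Myc, against 0.493, 1.39 and 0 in WT, and rose on both scales (limma adjusted p = 0.000169 and 0.0362 after scaling). Its isozyme Ctps2 was too low to be tested, with 1.09, 1.67 and 2.08 in Ela1-Myc and 0.104, 0.380 and 0.487 in WT.

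Salvage enzymes, which recycle bases and nucleosides, rose in part. In the purine salvage list 9 of 10 tested genes rose and 1 was not called on the deposited scale (median 1.83 log2 units), and after scaling 5 rose, 1 fell and 4 were not called (median 1.08). Aprt, which salvages adenine, stood at 32.4, 43.3 and 31.2 in Ela1-Myc, against 5.70 in WT replicate 2, was listed at 0 in WT replicates 1 and 3, and rose on both scales (limma adjusted p = 0.000127 and 0.0202 after scaling). Hprt, which salvages hypoxanthine and guanine, stood at 11.8, 20.0 and 21.9 in Ela1-Myc, against 2.64, 4.99 and 1.06 in WT, with no overlap (2.37 log2 units, limma adjusted p = 0.00123; 1.11 after scaling, limma adjusted p = 0.0903). Adenosine kinase Adk stood at 27.8, 21.0 and 27.1 in Ela1-Myc, against 14.4, 40.9 and 24.2 in WT, and was the gene of the list that fell after scaling (limma adjusted p = 0.0118). Ampd2, an AMP deaminase, stood between 7.18 and 10.5 in Ela1-Myc and between 1.97 and 5.05 in WT. In the pyrimidine salvage list 4 of 7 rose on the deposited scale and 2 after scaling, and none fell. Uck2, a uridine-cytidine kinase, overlapped between groups, with 32.3, 14.8 and 18.3 in Ela1-Myc and 7.42, 16.7 and 6.77 in WT; its change of 1.04 log2 units was not called (limma adjusted p = 0.120) and was -0.36 after scaling (limma adjusted p = 0.457). Thymidine kinase Tk1, a gene of dividing cells, had levels of 5.54, 8.74 and 7.56 in Ela1-Myc, while all 3 WT libraries list it at 0. The related kinases Uck1 and Uckl1 stood between 4.57 and 6.95 in Ela1-Myc and between 0.714 and 2.68 in WT.

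Genes that make or clear DNA precursors had the highest median change of the 8 further lists on both scales. This did not hold with a pseudocount of 10 (0.81, against 1.02 for pentose phosphate). Of the 6 tested genes, 1 was above 0 in all 6 libraries. All 6 tested genes of this list, labelled deoxynucleotide synthesis, rose on the deposited scale (median 2.73 log2 units), and after scaling 4 rose and 2 were not called (median 1.62). The medians include the nucleotide-cleaning genes Dctpp1 and Samhd1. The 4 that rose after scaling had a WT mean under 1 and entered the test only through their Ela1-Myc values. The medians of the list carry that condition. The ribonucleotide reductase subunit genes Rrm1 and Rrm2 stood between 4.55 and 12.9 in Ela1-Myc, and in WT replicate 2 at 0.0227 and 0.648, with 0 listed in WT replicates 1 and 3. Both rose on both scales (limma adjusted p = 5.88e-06 and 7.64e-06; 0.00156 and 0.00225 after scaling). Thymidylate synthase Tyms stood at 3.21, 3.45 and 4.43 in Ela1-Myc, against 0, 0.545 and 0.0212 in WT (limma adjusted p = 6.18e-05 and 0.00682 after scaling). The nucleotide-cleaning enzymes Dctpp1 and Samhd1 were the 2 that did not pass after scaling; Dctpp1 stood at 62.4, 65.6 and 47.4 in Ela1-Myc, against 1.39, 30.9 and 5.50 in WT, and Samhd1 at 6.56, 9.56 and 16.8 in Ela1-Myc, against 2.92, 0.767 and 0 in WT.

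Nucleotide kinases, breakdown enzymes and supply pathways were mixed after scaling. Of 13 tested kinases 9 rose and none fell on the deposited scale, and after scaling 2 rose and Ak3, an adenylate kinase of mitochondria, fell. Their most abundant members, Nme2, Nme1, Guk1 and Ak3, ranged from 21.1 to 610.9 in Ela1-Myc and from 8.94 to 355.3 in WT. Nme1 and Nme2 are neighbours of near-identical sequence, and their single values are uncertain. Of 7 breakdown genes 6 rose on the deposited scale, and after scaling Itpa rose and Nt5c3 fell. Nt5c, Nt5c3, Nt5c3l and Itpa, the 4 most abundant of them, ranged from 7.43 to 14.6 in Ela1-Myc and from 0 to 7.87 in WT. For one-carbon supply, which feeds formyl groups to Gart and Atic, 6 of 9 rose on the deposited scale, and after scaling 2 rose and the formyltetrahydrofolate dehydrogenase genes Aldh1l1 and Aldh1l2 fell (Aldh1l1 was chosen for naming after its values were seen). Mthfd1, which makes the formyl donor, stood at 12.4, 10.4 and 12.9 in Ela1-Myc, against 0.366, 5.29 and 1.19 in WT, while the mitochondrial genes Shmt2, Mthfd2 and Aldh1l2 ranged from 4.84 to 40.1 in Ela1-Myc and from 0 to 27.7 in WT. In the pentose phosphate pathway, the source of ribose for PRPP, 6 of 7 rose on the deposited scale, and 2 rose and none fell after scaling. Its abundant genes Taldo1, Pgls, Tkt and Pgd ranged from 18.5 to 89.3 in Ela1-Myc and from 0 to 51.3 in WT. Over all 8 lists 52 of 67 tested genes (77.6%) rose and none fell on the deposited scale, near the 70.2% of all tested genes called higher. After scaling 21 (31.3%) rose and 6 fell, where 18.1% of all tested genes were called higher and 7.95% lower. Of those 67 genes 23 had a WT mean under 1 and were tested only because of their Ela1-Myc values; 16 of these 23 and 5 of the other 44 rose after scaling.

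**Figure D4:**
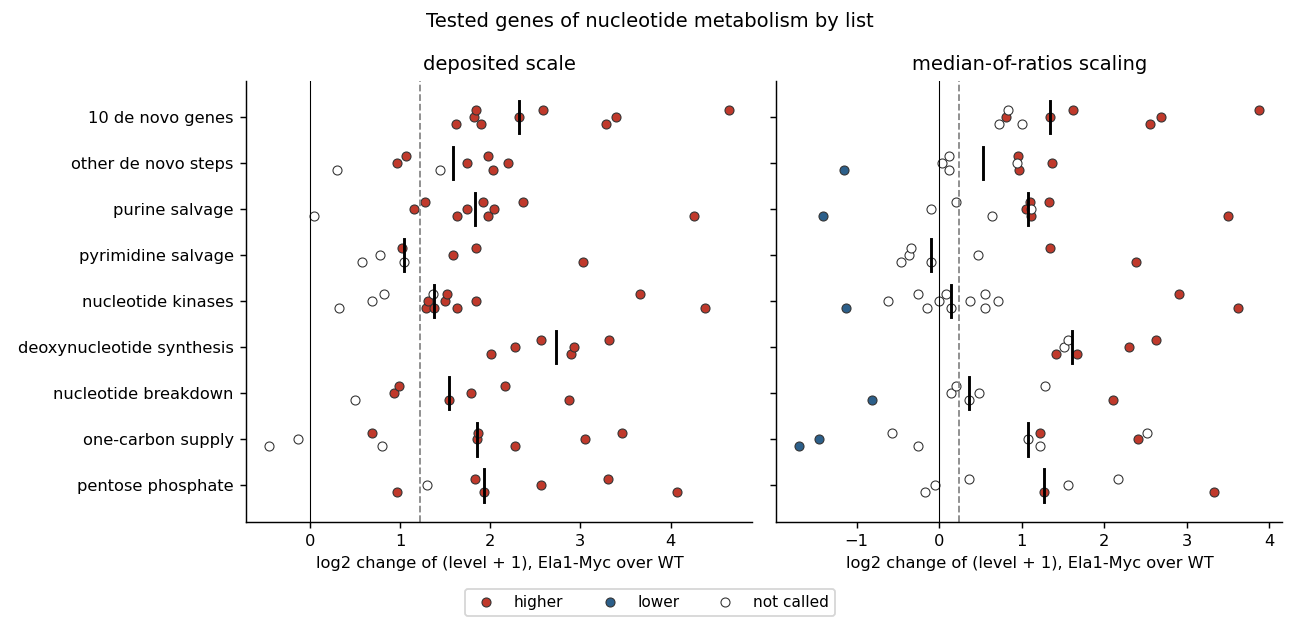
Log2 change of level + 1, Ela1-Myc over WT, for each tested gene of the 10 de novo genes and 8 further lists, on the deposited scale (left) and after median-of-ratios scaling (right). Filled points were called (limma adjusted p under 0.05), black bars are list medians and the dashed line is the median of all tested genes. After scaling the medians range from -0.10 for pyrimidine salvage to 1.62 for deoxynucleotide synthesis, with 1.34 for the 10 de novo genes.

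Markers of other cell types are given beside these values. Their counts are to be read against all tested genes, of which 70.2% were called higher on the deposited scale and 18.1% after scaling. The summed level of 6 macrophage markers was 243.2, 808.8 and 568.7 in Ela1-Myc and 32.3, 46.1 and 0.711 in WT, and that of 7 lymphocyte markers was 15.3, 140.8 and 93.4 in Ela1-Myc and 34.3, 0.419 and 0 in WT. All 6 macrophage markers rose on the deposited scale and 4 after scaling; all 6 tested lymphocyte markers rose on the deposited scale but none was called after scaling, where all 7 overlapped. Of 3 tested stellate cell markers 2 rose on both scales, with sums of 228.8, 321.0 and 332.1 in Ela1-Myc and 39.0, 76.6 and 41.0 in WT. Duct markers summed to 122.4, 246.7 and 267.2 in Ela1-Myc and 3.51, 71.8 and 5.32 in WT, and 2 of 3 rose on the deposited scale and none after scaling. Islet markers summed to 2308.2, 2678.3 and 3154.3 in Ela1-Myc and 0, 2277.4 and 336.0 in WT. All 5 were called higher on the deposited scale, although 3 of them overlapped between groups, and 1 was after scaling. The scaled sum of WT replicate 2, 2436.9, exceeded those of Ela1-Myc replicates 1 to 3 (1380.7, 1770.8 and 1643.8). Ela1-Myc replicate 1 had the lowest sum of its group for macrophage, lymphocyte, stellate cell, duct, islet and dividing-cell markers alike. The summed level of the 10 de novo genes in that library was the highest of the group on the deposited scale. It was intermediate after scaling (88.0, 91.8 and 69.7 in Ela1-Myc replicates 1 to 3). As a share of all values it was the lowest (13.5, 22.0 and 17.6 per 100000). These are values of 1 library, and a link to the markers was not tested. Of 6 markers of dividing cells, none was at 0 in Ela1-Myc, while WT replicates 1 and 3 list all 6 at 0 and WT replicate 2 lists 4; their sum was 54.2, 85.7 and 80.8 in Ela1-Myc and 0, 5.66 and 0 in WT. Mki67 and Top2a were at 0 in all 3 WT libraries. All 6 rose on both scales. The 4 at 0 in every WT library entered the test only through their Ela1-Myc values, so a higher level was a condition of their being tested. The remaining markers summed to 5.66 in WT replicate 2 and were at 0 in the other WT libraries. That is too little for each to have a WT mean of 1, so they were not all free of this condition. For the markers of the other cell types it was not counted. The part of these cell types in the higher levels of the 10 genes was not tested. Digestive enzymes made up 73.4%, 61.3% and 69.6% of all values in Ela1-Myc and 90.6%, 90.6% and 90.8% in WT. With them left out, the 10 genes made up 50.9, 57.0 and 58.1 per 100000 of the remaining level in Ela1-Myc and 7.29, 17.8 and 6.40 in WT. The groups stayed apart, but the share of all genes that do so was not computed. In the fit with enzymes left out and totals made equal, the median tested gene lay 0.46 log2 units higher and 21.5% were called higher. The values of WT replicates 1 and 3 also lack the 4 genes listed at 0.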

How the data were processed

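Per the labels' protocols, total RNA with ERCC spike-ins was poly(A)-selected, made into dUTP-stranded libraries and sequenced. The submitters' processing notes list TopHat2 2.0.4 with Bowtie, CASAVA 1.8, Cufflinks 2.0.2, FastQC 0.9.4 and affy, and build GRCm38 (mm10); no source used here gives their roles or the annotation. The authors deposited 1 adjusted FPKM per gene and library, per the file headers; the adjustment is not given. It can alter the scale between libraries, and 4459 rows share 1 value in each WT library and are 0 in every Ela1-Myc library. Low values showed no steps of whole reads, so depth is unknown.

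Values were divided by 100000 to bring them near the usual FPKM range. Where a symbol had several rows (187 symbols), the one of highest mean was used. The 8802 genes averaging 1 or more entered limma 3.58.1 (R 4.3.3), fitted to log2(value + 1) with a mean-variance trend, two-sided, with Benjamini-Hochberg adjustment over them; this scale understates changes of low genes. Size factors were medians of ratios over tested genes above 0 in all 6 libraries. Ratios, taken after 1 was added to both levels, used exact permutation tests (scipy 1.17.1). Named were the 10 members, 13 fixed genes, up to 4 genes of each other list by mean, and 2 others chosen after their values were seen. The members and lists were chosen with earlier results of these data known. Nt5c3b and Adgre1 were matched as Nt5c3l and Emr1. File starts, which count from 0, were raised by 1. The fit was tested on simulated data without listed zeros and without a shift of scale between libraries. That test therefore does not cover these 2 features of the data. Alternatives covered scale, pseudocount, filter, variance model, weights and each library left out; using only WT replicate 2 was chosen after seeing the data.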

Additional observations from a re-analysis of the deposited data

How the results depend on the processing

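Across 24 alternatives the 9 tested member genes gave 208 values, all above 0; 156 kept their side of the threshold and 52 were no longer called. Pfas entered 9 settings and was called in 5. The causes of these shifts were not tested. On the deposited scale 6203 genes were called in all, 6182 higher and 21 lower. The total became 2295 (1595 higher and 700 lower) after median-of-ratios scaling, 2754 (996 higher and 1758 lower) under quantile normalization, 2202 (1882 higher and 320 lower) with the enzymes left out and equal totals, and 1514 (733 higher and 781 lower) among scaled genes never at 0. With only WT replicate 2 in WT it was 3134, and 1701 after scaling. Leaving out 1 library gave 3942 (without Ela1-Myc replicate 3) to 7453 calls, and 618 to 2549 after scaling. Member genes called, 9 at first, were 5 under quantile normalization and 5 of the 5 above 0 in all 6 libraries, 2 of those 5 after scaling, and 1 after scaling with only WT replicate 2. Without single libraries they numbered 9 to 10, and 1 to 8 after scaling. The median member change of 2.32 was 1.34 after scaling, 0.77 under quantile normalization, 1.58 without enzymes, 3.70 and 0.86 with pseudocounts of 0.1 and 10, 0.84 among scaled genes never at 0, and 1.37 and 0.88 with only WT replicate 2 before and after scaling; without single libraries it was 1.83 to 2.53, and 1.12 to 1.43 after scaling. Genes of the 8 other lists called higher, 52 at first, were 21 after scaling, 13 under quantile normalization, 22 without enzymes, 33 and 7 among genes above 0 in all 6 libraries before and after scaling, and 30 and 13 with only WT replicate 2; without single libraries they numbered 41 to 61, and 9 to 26 after scaling.

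Some uncalled or weakly called changes turned sign. Uck2 was at -0.36 after scaling (also among genes above 0 in all 6 libraries), -0.57 under quantile normalization, -0.090 without enzymes, -0.81 with only WT replicate 2 and scaling, and -0.65 to -0.17 without single libraries after scaling; on the deposited scale it was called higher with array weights (1.36, limma adjusted p = 0.00093), without WT replicate 2 (1.42, limma adjusted p = 0.00936) and with a pseudocount of 10 (0.64, limma adjusted p = 0.0493). Impdh1 was at -0.092 under quantile normalization, -0.14 and -1.25 with only WT replicate 2 before and after scaling, and -0.20 and -0.61 after scaling without Ela1-Myc replicate 1 or WT replicate 3 (up to 2.23 without single libraries). Prps2 was at -0.31 under quantile normalization, -0.20 with only WT replicate 2 and scaling, and -0.023 and -0.11 after scaling without Ela1-Myc replicate 3 or WT replicate 1 (up to 1.25 without single libraries). Dhodh was at -0.37 under quantile normalization and Prps1 at -0.17 with only WT replicate 2 and scaling. The Cad to Umps ratio turned to -0.29 without Ela1-Myc replicate 1 and to -0.33 without WT replicate 3, within a range of -0.33 to 0.35 over single libraries left out. No paired analysis was possible because the labels carry no replicate numbers that groups share. The unknown depth gives no counting error for any value.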

Other observations

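Among 6990 other tested genes above 0 in all 6 libraries, the 5 whose scaled log2 levels followed the summed level of the 10 de novo genes most closely over the 6 libraries were Ddx27, Cuedc2, Oaz2, Supt6h and Eny2. Pearson's r was 0.998, 0.995, 0.995, 0.990 and 0.990 for them, as a description over 6 libraries that fall into 2 groups and share the same scaling. Ddx27, an RNA helicase of ribosome biogenesis, stood at 6.13, 5.33 and 6.29 in Ela1-Myc, against 0.149, 1.43 and 0.236 in WT. Supt6h, a histone chaperone of transcription elongation, stood at 4.28, 4.09 and 4.68 in Ela1-Myc, against 0.191, 1.05 and 0.309 in WT. Oaz2, an antizyme that limits polyamine synthesis, stood at 10.2, 8.94 and 11.1 in Ela1-Myc, against 1.18, 4.25 and 1.57 in WT.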
